A study of Mus musculus with 4 samples.

Results

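Mucous neck cells of the mouse gastric corpus were compared between cells that were sorted for a retained H2b-GFP label and cells that were sorted for Epcam alone. The neck cells were those placed in cluster 0 by the authors' deposited annotation, 1121 of the 4449 cells of the series. Of these, 441 came from Epcam+ 1, 496 from Epcam+ 2, 116 from GFP+ 1 and 68 from GFP+ 2, the 4 droplet-based single-cell RNA-seq libraries of the study. The cells of all groups came from stomachs of female Rosa26iH2b-GFP mice, aged 14 weeks by the labels, which carry H2b-GFP under the TRE3G promoter and a constitutively expressed Tet-on 3G transactivator at the Rosa26 locus. The mice had received doxycycline for 4 weeks and were then kept without it for a chase of 6 weeks, so the Epcam+ libraries are not an untreated control. The Epcam+ cells were viable cells without Cd45 and Cd31, and the GFP+ cells were the GFP-positive cells among them, so GFP+ neck cells could also enter the Epcam+ libraries. Sorted cells from 2 mice were combined for loading, and whether the 2 libraries of a sort stem from separate animals is not given in the sources used here. A p here thus stands for the spread between libraries alone, and that spread may be technical.

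Neck cells sit in the middle of the corpus gland, between the proliferating isthmus and the chief cells at the base. They secrete the mucin Muc6 and the trefoil factor Tff2, and they are widely held to mature into chief cells, which secrete pepsinogen, lipid-digesting enzymes and intrinsic factor. Pit cells, the other mucous type of the gland, cover the surface and secrete Muc5ac, Tff1 and the gastrokines. Histone-bound GFP is diluted when a cell divides, so that label found after a chase marks cells that divided little since the pulse.

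The label of cluster 0 was checked against its markers, as unscaled CPM, the counts of a gene scaled to 1e+06 unique molecular identifiers (UMIs) of a cluster in a library. Muc6 was at 3552 to 8392 CPM in cluster 0 across the 4 libraries, at 2.90 to 12.3 CPM in cluster 1 chief cells and at 2.31 to 106 CPM in pit cells. The pepsinogen gene Pga5 was at 1410 to 3421 CPM in cluster 0 and at 2.11 to 7.04 CPM in cluster 1. Of the other neck markers, Tff2, Gkn3 and Pgc were not particular to cluster 0. Tff2 was at 9845 to 40070 CPM in it and at 11686 to 25751 CPM in pit cells, higher there in Epcam+ 2 and GFP+ 2. Gkn3 was at 1184 to 6356 CPM in cluster 0 and at 1788 to 9157 CPM in cluster 5 chief cells. Pgc was at 117434 to 191682 CPM in cluster 0 and at 173307 to 217820 CPM in cluster 1. All 6 neck markers and all 6 chief markers had UMIs in cluster 0. Endothelial Pecam1 and the immune markers Ptprc and C1qa were at 0. For Ptprc and Pecam1 this was set beforehand, as cells with a count of either had been removed by the authors. Parietal markers summed to 8.51 to 16.9 CPM, endocrine markers to 46.2 to 68.6 CPM and tuft markers to at most 0.931 CPM.

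The neck cells gave 10742817 UMIs for Epcam+ 1, 10660676 for Epcam+ 2, 3760174 for GFP+ 1 and just 2013948 for GFP+ 2. The median neck cell held 24843, 21521, 34587 and 31133 UMIs in the same order, and 6.12% to 7.65% of its UMIs were mitochondrial. The libraries differed in their other cells: cluster 1 chief cells were 12.2% and 15.5% of the cells in Epcam+ 1 and 2 against 31.0% and 57.9% in GFP+ 1 and 2, and pit cells were 22.1% and 23.8% against 8.99% and 6.08%. Scrublet called 1 neck cell a doublet in each Epcam+ library and none in the GFP+ libraries. The libraries shared 2 cell barcodes among neck cells.

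UMIs of neck cells were summed per library, and 2 libraries were compared with 2 in edgeR's quasi-likelihood test over 11287 genes, scaled by the trimmed mean of M-values (TMM). GFP+ neck cells had 10 genes higher, 0.0886% of the genes tested, and 8 lower, 0.0709%, at an adjusted p under 0.05 (Benjamini-Hochberg). Of the 10 higher genes 3 encode secretory products of chief cells, and the 8 lower genes all had a higher level in pit cells than in neck cells. No gene of the heat shock, Atf4 or immediate-early lists passed. At an unadjusted p under 0.05 there were 1292 genes, 11.4% of those tested. Both GFP+ libraries lay above both Epcam+ libraries for 21.5% of all genes and below them for 22.1%. The median log2 fold change of all genes was 0.01 with TMM scaling and -0.12 with library totals, and with library totals 4 genes were higher and 11 lower. The number of calls also moved with each library. It was 21 without Epcam+ 1, 7 without Epcam+ 2, 275 without GFP+ 1 and 120 without GFP+ 2, where the lone library of a sort is assumed to vary like the 2 of the other. Of the 18 genes, 11 remained without Epcam+ 1 and 4 without Epcam+ 2, and all 18 remained without either GFP+ library. The 4 that remained in every such fit were Clps, Depp1, Lgals2 and Teddm3.

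**Figure D1:**
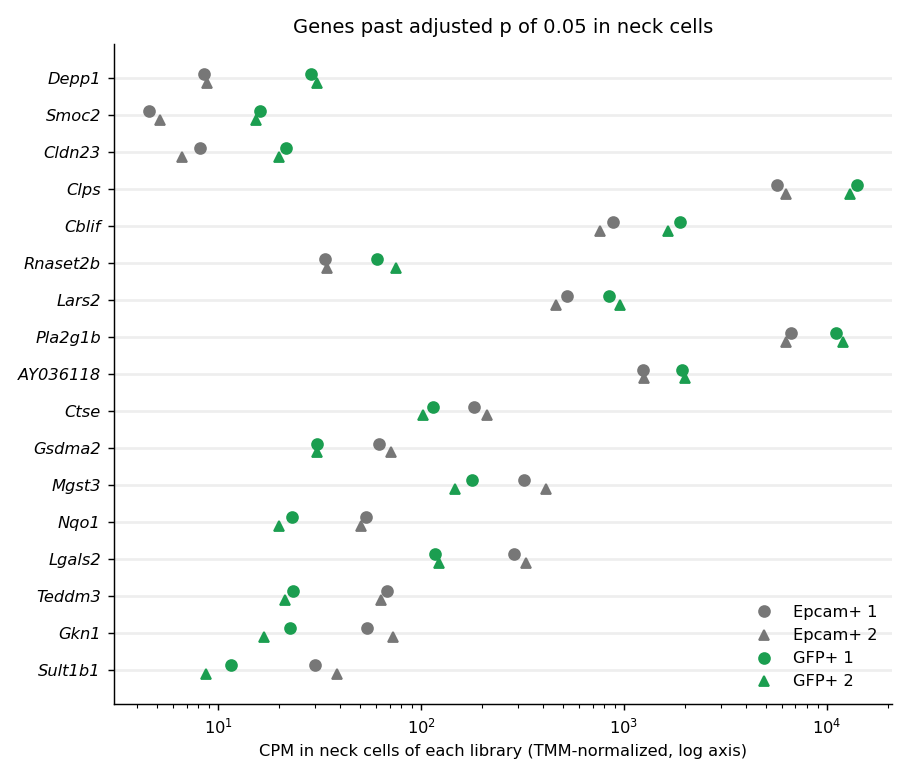
Level of 17 of the 18 genes past the threshold in neck cells, in TMM-normalized CPM on a log axis, with 1 point for each library (grey, Epcam+; green, GFP+; circles, replicate 1; triangles, replicate 2). The GFP+ points lie to the right of both Epcam+ points for the upper 9 genes and to the left for the lower 8.

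Clps encodes colipase, the cofactor of pancreatic lipase, and is a defining product of chief cells. Its level in neck cells was 5711 CPM in Epcam+ 1 and 6267 in Epcam+ 2 against 14088 in GFP+ 1 and 12967 in GFP+ 2. The groups did not overlap, and the log2 fold change was 1.18 ± 0.09 (SE; edgeR, adjusted p = 0.00604). Pla2g1b, a secreted phospholipase A2 of the same cells, was at 6677 and 6264 CPM in Epcam+ neck cells against 11113 and 11969 CPM in GFP+ neck cells. It rose by 0.83 ± 0.08 on the log2 scale (edgeR, adjusted p = 0.0142). Cblif encodes gastric intrinsic factor, which binds vitamin B12 and which chief cells secrete in mice. Cblif was at 882 and 763 CPM against 1891 and 1655 CPM in the same order, a log2 fold change of 1.11 ± 0.11 (edgeR, adjusted p = 0.0135). Neither gene overlapped between the groups. The call of Pla2g1b was lost without Epcam+ 1 (0.88, edgeR, adjusted p = 0.0554) and without Epcam+ 2 (0.79, adjusted p = 0.166), and that of Cblif without Epcam+ 2 (1.01, adjusted p = 0.0824).

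Promoters are shown for called genes that rose, Cblif and Pla2g1b, and that fell, Gkn1 and Lgals2. Each is the 250 bases before the gene start annotated by RefSeq (GRCm38.p6), 5′ to 3′ on the gene's strand. Of the 18 genes, 12 matched a promoter, and Clps did not. Here 3 motifs were searched on both strands, and letters in capitals mark a match: the TATA box TATAAA, the E box CANNTG, which basic helix-loop-helix factors such as the chief cell regulator Bhlha15 bind, and the GATA site TGATAA, which reads TTATCA on the other strand. Cblif lies on chromosome 19, with the stretch at chr19:11747309-11747558 on the plus strand. That of Pla2g1b is chr5:115465892-115466141 on the plus strand. Gkn1 and Lgals2, both lower in GFP+ neck cells, have theirs at chr6:87350916-87351165 and chr15:78855530-78855779, both on the minus strand.
Cblif: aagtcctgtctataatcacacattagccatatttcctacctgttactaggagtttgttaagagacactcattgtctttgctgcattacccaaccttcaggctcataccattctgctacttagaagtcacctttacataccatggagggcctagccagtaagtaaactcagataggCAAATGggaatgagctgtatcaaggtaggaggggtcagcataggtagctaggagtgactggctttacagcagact
Pla2g1b: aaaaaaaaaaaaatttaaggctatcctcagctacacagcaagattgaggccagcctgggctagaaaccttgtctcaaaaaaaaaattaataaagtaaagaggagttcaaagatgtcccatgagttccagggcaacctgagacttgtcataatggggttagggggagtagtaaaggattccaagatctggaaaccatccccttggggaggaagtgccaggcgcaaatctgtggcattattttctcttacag
Gkn1: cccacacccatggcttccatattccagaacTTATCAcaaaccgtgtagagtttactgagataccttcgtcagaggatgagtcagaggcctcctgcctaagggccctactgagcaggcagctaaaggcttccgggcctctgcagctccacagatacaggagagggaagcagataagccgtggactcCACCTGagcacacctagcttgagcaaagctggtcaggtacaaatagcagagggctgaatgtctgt
Lgals2: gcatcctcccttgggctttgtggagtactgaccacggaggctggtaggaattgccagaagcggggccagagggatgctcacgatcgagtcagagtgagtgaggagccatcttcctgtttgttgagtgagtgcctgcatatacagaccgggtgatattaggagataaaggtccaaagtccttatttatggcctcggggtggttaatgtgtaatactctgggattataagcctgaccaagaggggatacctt

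The Cblif stretch holds an E box, the Gkn1 stretch holds an E box and a GATA site, and the other 2 hold none of the motifs. Among the 12 called genes with a promoter, 8 held an E box, 2 a TATA box and 1 a GATA site. Over all 32851 promoters of the same length these motifs were in 66.2%, 12.4% and 7.94%. A match is a match of letters and not a site that was measured.

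The list of chief cell products had 13 genes tested, of which 3 rose, the genes above, and none fell. Its median log2 fold change was 0.64 against 0.01 for all genes. Of the 13 genes, 9 lay higher in both GFP+ libraries and 1 lower, beside 21.5% and 22.1% of all genes. Pgc, which encodes progastricsin, is made by neck and chief cells alike. It was at 132084 and 110158 CPM in Epcam+ neck cells against 203836 and 174044 CPM in GFP+ neck cells, a log2 fold change of 0.64 ± 0.11 that did not pass (edgeR, adjusted p = 0.134). Furin, a proprotein convertase, was at 101 and 81.1 CPM against 141 and 146 CPM (log2 fold change of 0.65, edgeR, adjusted p = 0.164). Neither gene overlapped between the groups. Chia1, the acidic chitinase of mature chief cells, was at 59.5, 81.1, 82.3 and 62.9 CPM in Epcam+ 1, Epcam+ 2, GFP+ 1 and GFP+ 2, and its groups overlapped (0.07 ± 0.18, edgeR, adjusted p = 0.925). The trypsin gene Try4 was at 6.66 and 9.50 against 11.9 and 12.3 CPM (0.57, edgeR, adjusted p = 0.446). Bhlha15, the transcription factor Mist1 of secretory cells, was at 5.93 and 4.05 against 7.92 and 7.16 CPM (0.61, edgeR, adjusted p = 0.496). The elastase gene Cela1 ran the other way, at 160.4 and 162 CPM against 130.4 and 50.1 CPM (-0.78, edgeR, adjusted p = 0.409).

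The chief cell transcripts were higher in the median cell of the GFP+ libraries too, not in a few cells alone. A single cell held 9.75% of the Clps UMIs in GFP+ 1 and 10.4% in GFP+ 2. In Epcam+ 1 and 2, which had more neck cells, a single cell held 2.82% and 4.12%. Clps and Pla2g1b together gave 1.26% and 1.34% of all neck cell UMIs in Epcam+ 1 and 2 and 2.37% and 2.42% in GFP+ 1 and 2. The groups were 1.30% ± 0.05 and 2.40% ± 0.04 (SD, n = 2 libraries each), with an exact permutation p of 0.333 (two-sided), the smallest that 2 against 2 can give. The share in the median cell was 0.728%, 0.716%, 1.46% and 1.51% in the same order. At the 10th percentile of cells it was 0.334% and 0.323% in the Epcam+ libraries and 0.654% and 0.627% in the GFP+ libraries, so the cells lowest in these transcripts also stood apart. Cells above 1.64%, the upper quartile over all neck cells, were 21.3% of Epcam+ 1 (95% Wilson interval 17.8% to 25.4%), 20.4% of Epcam+ 2 (17.1% to 24.1%), 45.7% of GFP+ 1 (36.9% to 54.8%) and 47.1% of GFP+ 2 (35.7% to 58.8%), where intervals cover counting error only. A fit without the cells above that share selects on Clps and Pla2g1b themselves and removes more of the GFP+ cells, so no value of these 2 genes is read from it. In it Cblif was at 1.53 and did not pass (edgeR, adjusted p = 0.142). In that fit 6 genes were higher and 8 lower.

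**Figure D2:**
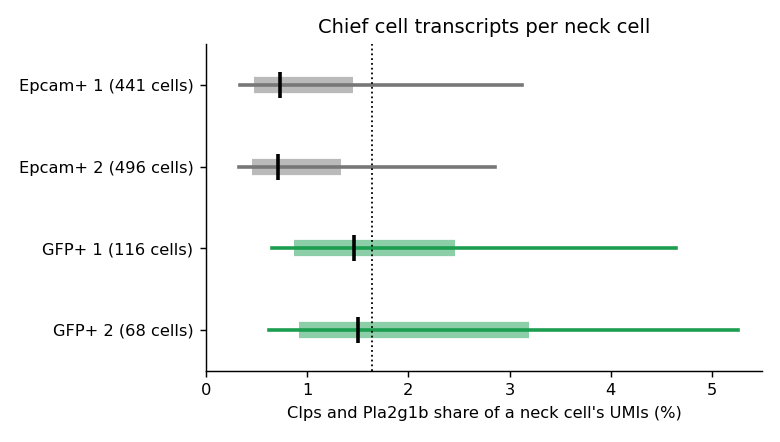
Share of each neck cell's UMIs from Clps and Pla2g1b (x axis, percent) by library, with the median cell (black tick), the middle 50% of cells (thick bar) and the 10th to 90th percentile (thin line); the dotted line is the upper quartile over all neck cells, 1.64%. The medians of the GFP+ libraries, 1.46% and 1.51%, lie above the Epcam+ medians of 0.728% and 0.716%.

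These transcripts are abundant in the chief cells of the same libraries, whose share of cells was higher in the GFP+ libraries. The part of chief cell RNA outside its cells in the neck cell values was not tested, and the ratios between the genes are given beside them. In neck cells there were 6.48 to 8.22 Clps UMIs for each Cblif UMI, against 77.9 to 95.5 in cluster 1 chief cells, 20.9 to 36.9 in cluster 5 chief cells and 32.5 to 73.3 in pit cells. In GFP+ 1 and 2 neck cells the ratio was 7.45 and 7.83, within the range of the Epcam+ libraries. Chia1 UMIs for each 1000 Clps UMIs were 10.4 and 12.9 in Epcam+ neck cells and 5.84 and 4.85 in GFP+ neck cells. In cluster 1 the same ratio was 47.1, 46.5, 47.4 and 29.0. For each Clps UMI there were 1.17 and 1.00 Pla2g1b UMIs in Epcam+ neck cells and 0.789 and 0.923 in GFP+ neck cells. That ratio was 0.699 to 0.729 in cluster 1, 0.556 to 0.651 in cluster 5 and 0.629 to 1.04 in pit cells.

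**Figure D3:**
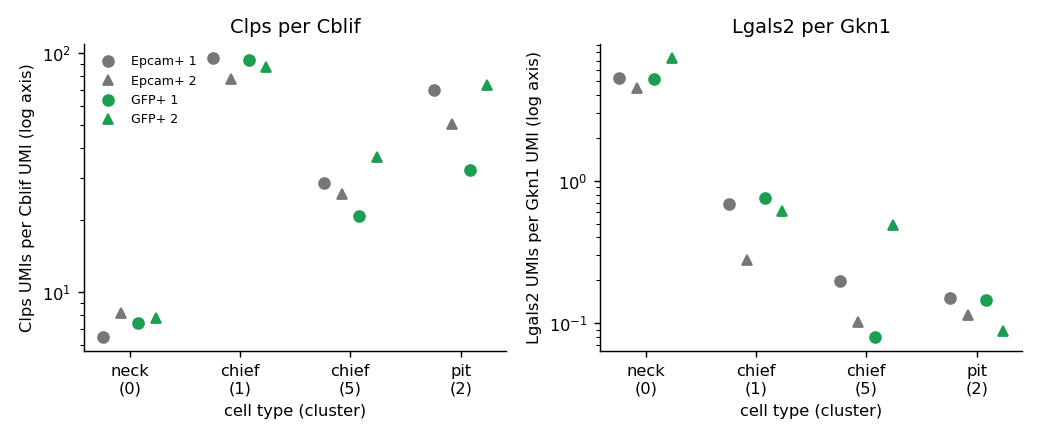
UMIs of Clps for each UMI of Cblif (left) and of Lgals2 for each UMI of Gkn1 (right) in neck, chief and pit cells, on log axes, with 1 point for each library (grey, Epcam+; green, GFP+; circles, replicate 1; triangles, replicate 2). Neck cells have 6.48 to 8.22 Clps for each Cblif and 4.51 to 7.30 Lgals2 for each Gkn1, apart from the other clusters in both plots.

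Smoc2, a secreted matrix-associated protein known as a marker of Lgr5-positive stem and reserve cells, also rose in GFP+ neck cells. It was at 4.56 and 5.19 CPM in Epcam+ 1 and 2 and at 16.1 and 15.3 CPM in GFP+ 1 and 2 (log2 fold change of 1.69 ± 0.21, edgeR, adjusted p = 0.0335). The groups did not overlap, but the sums behind them were 50, 59, 57 and 30 UMIs. The call was lost when cells were thinned to 1 depth (1.54, edgeR, adjusted p = 0.20), without the cells highest in Clps and Pla2g1b (1.60, adjusted p = 0.355), without Epcam+ 1 (1.60, adjusted p = 0.0944) and without Epcam+ 2 (1.78, adjusted p = 0.127). Of the 17 reserve and stem markers tested, Smoc2 was the 1 gene that rose, none fell, and the median log2 fold change was 0.28. Lgr5, the Wnt-dependent receptor of that cell type, was at 5.29, 2.73, 9.33 and 6.13 CPM in Epcam+ 1, Epcam+ 2, GFP+ 1 and GFP+ 2 (1.01 ± 0.40, edgeR, adjusted p = 0.403). Tnfrsf19, the receptor Troy, was at 11.4, 5.72, 18.7 and 11.8 CPM (0.90, edgeR, adjusted p = 0.414). In both genes the GFP+ libraries lay higher, GFP+ 2 close to Epcam+ 1. Cdkn1c, the CDK inhibitor p57, was at 98.3 and 56.1 CPM against 178.5 and 147 CPM (1.08 ± 0.24, edgeR, adjusted p = 0.206). Sox9 was at 492 and 476 against 525 and 581 CPM (0.19, edgeR, adjusted p = 0.484).

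Of the other higher genes, 5 that were in no list of cell type markers are described here, and Depp1 and Cldn23 were named after their values were seen. Depp1, a target gene of FoxO factors, was at 8.48 and 8.80 CPM in Epcam+ neck cells against 28.8 and 30.7 CPM in GFP+ neck cells (log2 fold change of 1.77 ± 0.16, edgeR, adjusted p = 0.00741). Of its 102 UMIs in GFP+ 1, 45.1% lay in a single cell, as did 46.7% of its 60 UMIs in GFP+ 2, against 15.1% and 26.0% of 93 and 100 UMIs in Epcam+ 1 and 2. The tight junction gene Cldn23 was at 8.12 and 6.60 against 21.5 and 19.9 CPM (1.50 ± 0.19, edgeR, adjusted p = 0.0335).

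Lars2, the mitochondrial leucyl-tRNA synthetase, was at 521 and 461 CPM in Epcam+ neck cells against 849 and 956 CPM in GFP+ neck cells (0.88 ± 0.10, edgeR, adjusted p = 0.0318). It was the 1 member of 21 aminoacyl-tRNA synthetases that rose, and none fell. AY036118, a non-coding transcript on chromosome 17 (GRCm38, chr17:39847113-39848035, minus strand), was at 1244 and 1259 against 1938 and 2007 CPM (0.66 ± 0.08, edgeR, adjusted p = 0.0335). Reads of both genes are often taken to come in part from ribosomal RNA, so their counts are uncertain as gene levels. Rnaset2b, a lysosomal ribonuclease with a near-identical copy, was at 33.6 and 34.3 against 60.8 and 75.7 CPM (0.99, edgeR, adjusted p = 0.0352). The counting could split the reads of Rnaset2b between copies. None of the 5 genes overlapped between the groups. Depp1 kept its call without each library in turn, Cldn23 lost it without Epcam+ 2 (1.35, adjusted p = 0.168), and Lars2, AY036118 and Rnaset2b lost it without either Epcam+ library (adjusted p = 0.0555 to 0.402).

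Lgals2, which encodes galectin-2, a sugar-binding lectin, fell in GFP+ neck cells. Its level was 287 CPM in Epcam+ 1 and 330.0 in Epcam+ 2 against 118 in GFP+ 1 and 123 in GFP+ 2, with no overlap. The log2 fold change was -1.36 ± 0.11 (edgeR, adjusted p = 0.00604), and it passed under all 15 alternatives, between -1.49 and -1.13. Gkn1, the gastrokine secreted by pit cells, was at 54.4 and 73.1 CPM against 22.6 and 16.9 CPM (-1.65 ± 0.20, edgeR, adjusted p = 0.0335). Mgst3, a membrane-bound glutathione S-transferase, was at 322 and 412 against 179 and 147 CPM (-1.16 ± 0.15, edgeR, adjusted p = 0.0335). Nqo1, a quinone reductase that responds to oxidative stress through Nrf2, was at 53.7 and 50.6 against 23.2 and 19.9 CPM (-1.25 ± 0.13, edgeR, adjusted p = 0.0186). Thus the GFP+ levels of these enzymes stood below every Epcam+ level. Ctse, the aspartic protease cathepsin E, was at 182 and 211 against 115 and 102 CPM (-0.85 ± 0.12, edgeR, adjusted p = 0.0491).

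The other 3 lower genes were named after their values were seen. The sulfotransferase gene Sult1b1 was at 29.9 and 38.5 CPM in Epcam+ neck cells against 11.6 and 8.69 CPM in GFP+ neck cells (-1.70 ± 0.22, edgeR, adjusted p = 0.0335). Gsdma2, of the gasdermin family of pore-forming proteins, was at 62.2 and 71.0 against 30.5 and 30.7 CPM (-1.12, edgeR, adjusted p = 0.0274). Teddm3 was at 68.1 and 63.6 against 23.5 and 21.5 CPM (-1.54 ± 0.13, edgeR, adjusted p = 0.00604). None of the 8 lower genes overlapped between the groups. Without Epcam+ 2, 6 of the 8 lost their call, all but Lgals2 and Teddm3, with log2 fold changes of -1.52 to -0.74 and adjusted p of 0.0612 to 0.402. Without Epcam+ 1, Ctse alone lost it (-0.96, adjusted p = 0.0571).

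All 8 lower genes had a higher level in pit cells than in neck cells in every library, as unscaled CPM. Lgals2 was at 3635 to 4708 CPM in pit cells and at 111 to 352 CPM in neck cells, and Mgst3 was at 2678 to 2952 and 143 to 439 CPM. Gkn1 was at 24826 to 53316 CPM in pit cells and at 16.4 to 77.9 CPM in neck cells. The part of pit cell RNA in these changes was not tested, and the ratios are again given beside them. For each Gkn1 UMI there were 4.51 to 7.30 Lgals2 UMIs in neck cells and 0.0883 to 0.150 in pit cells, and 5.63 to 8.73 against 0.0527 to 0.113 Mgst3 UMIs. For Gkn2, another gastrokine, the ratio to Gkn1 was 0.760 to 1.09 in neck cells and 0.833 to 0.964 in pit cells. Tff1 UMIs for each Gkn1 UMI were 5.04 and 2.31 in Epcam+ neck cells and 2.46 and 1.36 in GFP+ neck cells. In pit cells they were 1.73 to 2.47. The low levels of these genes in cluster 1 chief cells ran the same way: Gkn1 was at 25.7 and 42.3 CPM in Epcam+ chief cells against 12.4 and 12.3 CPM in GFP+ chief cells (-1.40 ± 0.18, edgeR, adjusted p = 0.0348), and Gkn2 fell by 1.43 on the log2 scale (adjusted p = 0.0348). For Lgals2 the value in cluster 1 was -0.75 and did not pass (edgeR, adjusted p = 0.397).

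Of the 13 pit cell markers tested, 1 fell, Gkn1, and none rose, with a median log2 fold change of -0.34. In both GFP+ libraries 8 of the 13 lay lower, beside 22.1% of all genes. Tff1, the trefoil factor of pit cells, was at 274 and 169 CPM against 55.7 and 23.0 CPM (-2.41 ± 0.34), just short of the threshold (edgeR, adjusted p = 0.0533). Its groups did not overlap. It passed without each of the 4 libraries in turn, with log2 fold changes of -3.27 to -1.99. Muc5ac, the mucin of pit cells, was at 12.4 and 34.3 against 2.55 and 2.04 CPM (-3.30 ± 0.76, edgeR, adjusted p = 0.241), and Gkn2 at 41.3 and 68.5 against 24.6 and 16.4 CPM (-1.36, adjusted p = 0.20). The pit keratin Krt19 overlapped between the groups, at 192.5, 171, 180.1 and 82.8 CPM. The 5 pit markers used for naming cells summed to 586, 549.5, 269 and 137 CPM in Epcam+ 1, Epcam+ 2, GFP+ 1 and GFP+ 2.

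The list of neck cell mucus products, which also holds the pit cell trefoil factor Tff1, gave no call. Of 21 genes tested, none rose or fell, and their median log2 fold change was 0.0005 beside 0.01 for all genes. The lowest value of the list was that of Tff1, -2.41, so the median is not that of neck cell products alone. The level of Muc6 was 5946 and 3332 CPM in Epcam+ 1 and 2 and 8924 and 5487 CPM in GFP+ 1 and 2. Its groups overlapped, as Epcam+ 1 lay above GFP+ 2 (0.64 ± 0.28, edgeR, adjusted p = 0.441). Tff2 was at 39263, 16244, 34062 and 10136 CPM in the same order (-0.33 ± 0.53, edgeR, adjusted p = 0.859), with its high levels in the libraries of replicate 1 of both sorts. Gkn3, the gastrokine of neck cells, was at 3638, 1111, 6759 and 1854 CPM, again higher in replicate 1 (0.86 ± 0.62, edgeR, adjusted p = 0.644). Pga5, a pepsinogen of neck cells, was at 2416, 1323, 3638 and 2791 CPM without overlap (0.78 ± 0.25, edgeR, adjusted p = 0.339).

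Stress response genes were examined because the study describes a raised stress response in label-retaining chief cells. The heat shock genes named by the study were picked on these libraries, as were the genes of the Atf4 list that it shows as raised, so the counts below are not independent evidence of a direction. Of 24 Atf4 targets tested in neck cells, none rose or fell, the median log2 fold change was 0.32, and 17 of the 24, 70.8%, lay higher in both GFP+ libraries, beside 21.5% of all genes. Atf3, a transcription factor induced by Atf4, was at 1092 and 1358 CPM in Epcam+ neck cells against 1453 and 2323 CPM in GFP+ neck cells (0.62 ± 0.20, edgeR, adjusted p = 0.342). Atf4 itself was at 211 and 176 against 226 and 268 CPM (0.35 ± 0.13, edgeR, adjusted p = 0.379). Ddit3, which encodes the pro-apoptotic factor Chop, was at 92.0 and 99.5 against 117 and 160.5 CPM (0.52 ± 0.15, edgeR, adjusted p = 0.293). These 3 genes did not overlap between the groups, but 1 cell held 38.2% of the Ddit3 UMIs of GFP+ 2. Chac1, an enzyme that degrades glutathione, was at 2.65 and 1.58 against 10.2 and 5.62 CPM (1.98 ± 0.40, edgeR, adjusted p = 0.195), on sums of 29, 18, 36 and 11 UMIs. A single cell held 13.8% and 33.3% of its UMIs in Epcam+ 1 and 2 and 30.6% and 54.5% in GFP+ 1 and 2.

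Of 26 cytosolic heat shock genes, none rose or fell, and the median log2 fold change was 0.22. In both GFP+ libraries 9 of the 26, 34.6%, lay higher and 3 lower, beside 21.5% and 22.1% of all genes. The inducible chaperone gene Hspa1b was at 739 and 907 CPM against 1124 and 1735 CPM (0.79 ± 0.19, edgeR, adjusted p = 0.249). Without GFP+ 1 its value was 1.07 and passed (edgeR, adjusted p = 1.84e-05). The chaperone genes Hspa8 and Hsp90aa1 overlapped between the groups, with Hspa8 at 1585, 1808, 1737 and 2419 CPM and Hsp90aa1 at 1256, 1712, 1600 and 2170 CPM in Epcam+ 1, Epcam+ 2, GFP+ 1 and GFP+ 2. Hspa1a, Dnajb1 and Hspe1 overlapped as well, with log2 fold changes of 0.40, 0.50 and 0.44. In each of these 6 genes GFP+ 2 had the highest level of the 4 libraries. Of 27 genes of the endoplasmic reticulum unfolded protein response, none passed and the median was 0.06.

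Of 26 immediate-early genes, which transcribe soon after a stimulus or tissue dissociation, none passed, with a median log2 fold change of 0.14. Jun was at 2959 and 3261 CPM in Epcam+ neck cells against 3813 and 5249 CPM in GFP+ neck cells, without overlap (0.54 ± 0.14, edgeR, adjusted p = 0.271). Without GFP+ 1 its value was 0.75 and passed (edgeR, adjusted p = 0.000225). Fos and Egr1 overlapped, with log2 fold changes of 0.28 and 0.27, and GFP+ 2 was again the highest library. Of 20 oxidative stress and metallothionein genes, Nqo1 fell, none rose, and the median was -0.17.

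**Figure D4:**
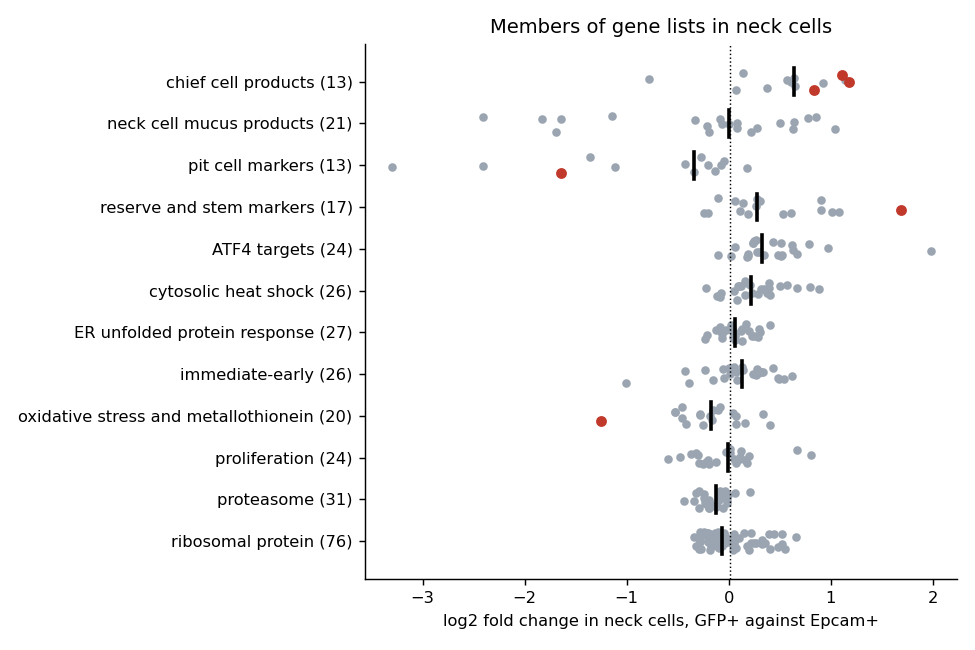
Log2 fold change of GFP+ against Epcam+ neck cells (x axis) for each tested member of 12 gene lists, with the number of members in parentheses; red points passed an adjusted p of 0.05, black ticks are list medians and the dotted line is the median of all genes, 0.01. Chief cell products have the highest median, 0.64, and pit cell markers the lowest, -0.34; no member of the Atf4, heat shock, unfolded protein response or immediate-early lists passed.

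Genes of general cell function gave no call. None of the 31 proteasome genes passed, and their median log2 fold change was -0.12. In both GFP+ libraries 20 of the 31 lay lower, beside 22.1% of all genes. None of 76 ribosomal protein genes passed, with a median of -0.06, nor did any of 8 genes of the chaperonin TRiC, at -0.23, of 47 nuclear genes of oxidative phosphorylation, at -0.10, or of 13 mitochondrially encoded genes, at 0.12. With library totals in place of TMM the median of all genes was itself -0.12, so the direction of such small medians depends on the scaling.

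Proliferation genes gave no call. None of the 24 tested passed, with a median log2 fold change of -0.01. Mki67 was at 12.9, 9.85, 12.2 and 4.09 CPM in Epcam+ 1, Epcam+ 2, GFP+ 1 and GFP+ 2, and overlapped (-0.32 ± 0.35, edgeR, adjusted p = 0.792). With each cell thinned to 15635 UMIs, 47 of 400 neck cells of Epcam+ 1 had an Mki67 or Top2a UMI, 11.8% (95% Wilson interval 8.95% to 15.3%), and 52 of 441 of Epcam+ 2, 11.8% (9.11% to 15.1%). In GFP+ 1 they were 11 of 105, 10.5% (5.95% to 17.8%), and in GFP+ 2 they were 2 of 63, 3.17% (0.875% to 10.9%). The exact permutation p was 0.333, the smallest possible, and the low share rested on GFP+ 2. Thinning left out 41, 55, 11 and 5 cells, and without it the shares were 15.2%, 14.9%, 13.8% and 10.3%. In cluster 1 chief cells, which rarely divide, the thinned share was 1.02% and 2.04% in the Epcam+ libraries, and 0 of 140 and 0 of 255 cells in the GFP+ libraries. The median depth before thinning was 104376 to 167508 UMIs in these chief cells. Thinning sets the total alone. As unscaled CPM, Clps was at 352483 to 378824 in these chief cells and at 5828 to 13248 in neck cells. Fewer of the thinned UMIs of a chief cell were thus left for other genes, which limits the comparison of the shares.

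The same sort contrast was then set beside that of other clusters, which come from the same 4 libraries and so share all samples. The difference between the contrasts was tested by an interaction term, with a block for the library. Against cluster 1 chief cells, the contrast differed in 14 of 12340 genes, 0.113%, with 12 higher in neck cells, 0.0972%, and 2 lower, 0.0162%. Clps had a log2 fold change of 1.18 in neck cells and of -0.001 in cluster 1, where it was at 352483 to 378824 CPM in all libraries. The difference was 1.20 ± 0.07 (edgeR, adjusted p = 4.69e-07), but it did not pass in DESeq2 (1.19, adjusted p = 1.00). DESeq2 gave Clps a dispersion of 1.13 where its trend over genes was 0.00847. For Pla2g1b the difference was 0.81 (edgeR, adjusted p = 8.53e-07), for Cblif 1.20 (adjusted p = 0.000686) and for Pgc 0.42 (adjusted p = 0.00399). In DESeq2 Cblif passed too (1.19, adjusted p = 0.000803), while Pla2g1b and Pgc did not (0.81 and 0.41, adjusted p = 1.00). Furin differed by 0.71 (edgeR, adjusted p = 0.0124) and Cdkn1c by 0.99 (adjusted p = 0.00845). In DESeq2 the difference in Cdkn1c passed (adjusted p = 0.0395), not that in Furin (adjusted p = 0.196). In cluster 1 itself the log2 fold change was 0.04 for Pla2g1b, -0.08 for Cblif and -0.04 for Furin, and of 10146 genes 4, 0.0394%, were higher in GFP+ cells and 5, 0.0493%, lower.

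Among neck cell products, Muc6 and Pga5 differed in the same direction. Tff2 and Gkn3 did not pass against cluster 1, with differences of 0.0989 and -0.082 (edgeR). Muc6 differed from its contrast in cluster 1 by 1.50 (edgeR, adjusted p = 0.0124) and Pga5 by 1.96 (adjusted p = 1.20e-05). In cluster 1 Muc6 and Pga5 were near background, Pga5 at 2.11 to 7.04 CPM. The difference in Muc6 was lost without Epcam+ 1 (0.90, edgeR, adjusted p = 0.106) and without GFP+ 2 (1.47, adjusted p = 0.188). Depp1 differed by 2.21 (edgeR, adjusted p = 0.0302). The 2 genes lower in neck cells were the endocrine genes Chga (-2.25, edgeR, adjusted p = 0.000686) and Ghrl (-1.54, adjusted p = 0.00215). Of the stress genes, Mt2, a metallothionein, passed this test (2.09, edgeR, adjusted p = 0.0306), though not without Epcam+ 1 (2.24, adjusted p = 0.102), Epcam+ 2 (1.88, adjusted p = 0.536) or GFP+ 2 (1.34, adjusted p = 0.745). In neck cells Mt2 itself overlapped between the groups (-0.10, edgeR, adjusted p = 0.864), and in cluster 1 it was near background. The interaction did not pass for Atf3, Hspa1b and Atf4. They were at -0.07, -0.05 and 0.18 in that order (edgeR, adjusted p = 0.982, 0.989 and 0.941).

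Against pit cells, the contrast differed in 75 of 11700 genes, 0.641%, with 39 higher in neck cells, 0.333%, and 36 lower, 0.308%. All 8 genes that fell in neck cells were among the 36. Lgals2 had a log2 fold change of 0.47 in pit cells and -1.36 in neck cells, a difference of -1.79 (edgeR, adjusted p = 0.00138). The difference was -2.23 for Gkn1, -1.83 for Gsdma2, -1.73 for Sult1b1, -1.56 for Teddm3, -1.53 for Nqo1, -1.50 for Ctse and -1.33 for Mgst3 (edgeR, adjusted p = 0.00216 to 0.0106). The difference in Mgst3 was lost without Epcam+ 2 (-1.17, edgeR, adjusted p = 0.0618). Tff1 was at 52037 and 55126 CPM in Epcam+ pit cells and at 78148 and 95319 CPM in GFP+ pit cells, and differed from neck cells by -3.21 (edgeR, adjusted p = 0.00735). The pit contrast rests on 42 GFP+ 1 cells and 27 GFP+ 2 cells, and within it 23 of 10983 genes, 0.209%, were higher and 17, 0.155%, lower. For Clps the difference from pit cells did not pass (-0.16, edgeR, adjusted p = 0.829), where it was at 745 and 953 CPM in Epcam+ pit cells against 2752 and 1440 CPM in GFP+ pit cells. Pla2g1b, Cblif and Furin had log2 fold changes of 1.53, 2.05 and 2.31 in pit cells (edgeR, adjusted p = 0.118 to 0.156). None of these passed, and GFP+ 1 had the highest level for each. Their differences from pit cells, -0.47, -0.77 and -1.59, did not pass either (edgeR, adjusted p = 0.245 to 0.730).

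Against cluster 5 chief cells, which had Muc6 at 915 to 1600 CPM, the contrast differed in 3 of 10512 genes, 0.0285%, with 2 higher in neck cells, 0.019%, and 1 lower, 0.00951%. These were Cela1, which differed by -1.23 (edgeR, adjusted p = 0.0167), Ptgr1, a prostaglandin reductase, by 1.37 (adjusted p = 0.0167), and 2210010C04Rik, named after its value was seen and measured in neck cells by at most 28 UMIs per library. The number of genes rose to 33 to 64 when a library was left out. In cluster 5 the pit cell genes ran in the direction seen in neck cells, with log2 fold changes of -1.68 for Gkn1, -1.39 for Lgals2, -1.71 for Nqo1 and -1.43 for Mgst3 (edgeR, adjusted p = 0.0868, 0.128, 0.00483 and 0.0210). In that cluster 4 of 9074 genes, 0.0441%, were higher in GFP+ cells and 24, 0.264%, lower. Between neck cells and cluster 5, the interaction did not pass for any of the 8, at adjusted p of 0.895 to 1.00. For Clps the difference was 1.06 and also did not pass (edgeR, adjusted p = 0.145), nor did that of Cblif (1.02, adjusted p = 0.0683).

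The endocrine cells of cluster 6 numbered 62, 84, 52 and 26 in Epcam+ 1 and 2 and GFP+ 1 and 2, and their difference from neck cells was not tested. Here 6 of 9960 genes, 0.0602%, were higher in GFP+ cells and 16, 0.161%, lower. Pit cell genes were lower in them as well, with log2 fold changes of -3.01 for Ctse on 52, 64, 6 and 5 UMIs, -1.66 for Mgst3, -3.63 for Tff1 and -2.38 for Gkn2 (edgeR, adjusted p = 0.00357, 0.0271, 0.0319 and 0.00357), while Gkn1 and Lgals2 did not pass (-2.32 and -1.05, adjusted p = 0.0713 and 0.148). Clps ran against its direction in neck cells, with a fall of 0.62 on the log2 scale that passed (edgeR, adjusted p = 0.0433). It was at 27518 and 31337 CPM in Epcam+ endocrine cells against 20634 and 18027 CPM in GFP+ endocrine cells. Pla2g1b was at -0.64 and did not pass (edgeR, adjusted p = 0.159).

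**Figure D5:**
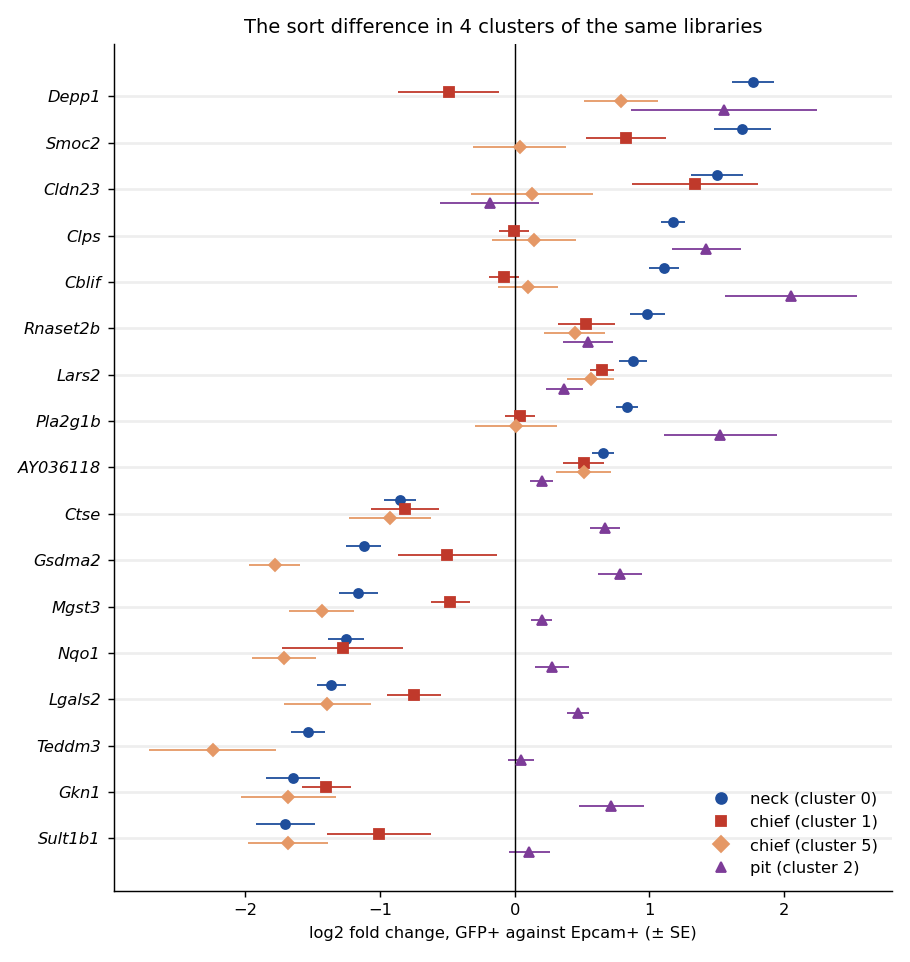
Log2 fold change of GFP+ against Epcam+ libraries with its standard error (bars) for 17 of the 18 genes past the threshold in neck cells (circles), in cluster 1 chief cells (squares), cluster 5 chief cells (diamonds) and pit cells (triangles) of the same 4 libraries; a point is left out where the gene was not tested. Clps is at 1.18 in neck cells and at -0.001 in cluster 1, and the lower genes are below 0 in neck cells and above 0 in pit cells, Lgals2 at -1.36 and 0.47.

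Lars2, AY036118 and Rnaset2b had positive log2 fold changes in the other clusters too, but of these the value of Lars2 in cluster 1 alone passed (edgeR, adjusted p = 0.0442), and the others had an adjusted p of 0.0713 to 0.628. The log2 fold changes of the 3 genes in cluster 1 were 0.65, 0.51 and 0.53, in pit cells 0.37, 0.20 and 0.54, and in cluster 5 0.56, 0.51 and 0.45. In the endocrine cells of cluster 6 they were 0.69, 0.39 and 0.93. As unscaled CPM the groups overlapped for AY036118 in cluster 5, at 625 and 811 against 1215 and 724, and for Rnaset2b in cluster 1, at 4.72 and 7.48 against 7.02 and 9.74. For none of the 3 genes did the interaction of neck cells with cluster 1, 2 or 5 pass (edgeR, adjusted p = 0.159 to 1.00).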

How the data were processed

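Single-cell RNA-seq of 4 libraries was analysed, 2 sorted for Epcam and 2 for Epcam and GFP. Alignment to mm10 and UMI counting were done by the authors in Cell Ranger 3.0.2 and clustering in Seurat 4.1.1. They kept cells with 1500 to 8000 genes, at most 15% of mitochondrial counts and neither Ptprc nor Pecam1. The deposited values are raw UMI counts of 17712 genes in 4449 cells, with the cluster and library of each cell.

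Counts were summed per library and cluster and tested with edgeR 4.0.16 (R 4.3.3; TMM, filterByExpr, quasi-likelihood test, two-sided, 2 residual degrees of freedom, Benjamini-Hochberg at 0.05). The SE of a log2 fold change is its size divided by the square root of the F statistic. Tests against cells of other clusters required 20 cells in each library. DESeq2 1.42.0, limma 3.58.1 (log2(CPM + 1)) and Scrublet in scanpy 1.11.5 served as alternatives, and scipy 1.17.1 gave Wilson intervals. For thinning, each cell was reduced to the 10th percentile of UMIs, 15635. Scripts were tested on simulated data. Positions are those of GENCODE on GRCm38, a build equal to mm10, and promoters those of RefSeq on GRCm38.p6.

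The cells compared, 37 gene lists and 37 alternatives were chosen with earlier results of these data known. Named are up to 15 called genes each way with at least 50 CPM, the called members of each list and its 3 most abundant ones, markers and stress genes that the paper names, and the 5 largest called interactions each way with at least 50 CPM in neck cells. Not every gene the rule allows is printed. Results of 1 called gene are not reported here. Lists not described in the text are cholesterol synthesis, hypoxia and glycolysis, interferon and antigen presentation, lysosome and autophagy, NF-kB response, secretory pathway, Id genes, EGFR feedback, CDK inhibitors, metaplasia, mitochondrial chaperones, lineage transcription factors and markers of isthmus, parietal, endocrine, tuft, squamous, endothelial, fibroblast, immune and red blood cells. None of their members passed the test. Depth limits low genes, as GFP+ 2 held 2013948 neck cell UMIs.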

Additional observations from a re-analysis of the deposited data

Results flagged for a closer look

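The genes below had a sort difference in neck cells that differed from the one in another cluster of the same libraries, by edgeR's interaction test with Benjamini-Hochberg adjustment. Every value is the log2 fold change of GFP+ against Epcam+ in neck cells minus that in the other cluster, and no explanation was tested.

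Against cluster 1 chief cells, the difference was 1.20 for Clps, 1.20 for Cblif, 1.50 for Muc6, 1.96 for Pga5 and 2.09 for Mt2, a metallothionein. The genes Muc6, Pga5 and Mt2 were near background in cluster 1, where Mt2 summed to 26 and 39 UMIs in the Epcam+ libraries and to 8 and 9 in the GFP+ libraries. In neck cells Mt2 was at 282, 245, 200.5 and 294 CPM in Epcam+ 1, Epcam+ 2, GFP+ 1 and GFP+ 2. The difference in Mt2 did not pass without Epcam+ 1 (2.24, edgeR, adjusted p = 0.102), without Epcam+ 2 (1.88, adjusted p = 0.536) or without GFP+ 2 (1.34, adjusted p = 0.745).

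Against pit cells, genes at a low level in pit cells gave the highest values. For Muc6 it was 3.47, with 4 UMIs in the pit cells of GFP+ 2, and 5.36 without GFP+ 1. It was 3.41 for the small heat shock gene Hspb1 on 3 and 7 UMIs in GFP+ pit cells, with 1.85 without GFP+ 1 and 4.72 without GFP+ 2. It was 3.05 for Casc4 on 4 and 2 UMIs and 3.03 for Bex4 on 11 and 5 UMIs. Igf1, the insulin-like growth factor, had a fitted value of 8.27, which is no measure of size since its pit cells held 64 and 62 UMIs in the Epcam+ libraries and none in the GFP+ libraries. In neck cells Igf1 was at 89.2, 70.4, 99.8 and 78.2 CPM. Its interaction did not pass without GFP+ 1 (edgeR, adjusted p = 0.0736).

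The difference from pit cells was negative for Tff1 at -3.21, Lgals2 at -1.79, Ctse at -1.50, Mgst3 at -1.33 and Cela1 at -1.17. That of Cela1 did not pass without Epcam+ 1 (-1.05, edgeR, adjusted p = 0.0929). Against cluster 5 chief cells, Ptgr1 differed by 1.37 and Cela1 by -1.23. In cluster 5, Ptgr1 was at 110 and 86.5 CPM in Epcam+ cells against 31.1 and 30.3 CPM in GFP+ cells, while in neck cells it was at 142 and 153 against 125 and 130.4 CPM.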

How the results depend on the processing

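With 2 libraries a sort, the number of calls depended on the processing. The 10 higher and 8 lower genes became 355 and 310 with the replicate number as a block (replicate block), 23 and 21 in DESeq2, 1 and 5 in limma with cells weighted equally, 4 and 11 with library totals, and 2 to 190 and 5 to 85 when a library was left out. Without the cells above the upper quartile in Clps and Pla2g1b, a filter that uses these called genes, 6 were higher. The replicate numbers of the labels name 2 pairs only, too few to show a pairing, and deviations of same-numbered libraries correlated at r = 0.569 over 2369 genes, which are not replicates. Of the 18 calls, 15 of the 15 that DESeq2 tested remained there, 13 with cells thinned to 1 depth, 12 with library totals, 12 without the cells highest in chief transcripts and 6 in limma.

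The interactions against cluster 1 (14 genes) became 8 without Clps, Pla2g1b and Pgc, 1 without the library block, 6 in DESeq2 and 10 to 40 without a library. Those against pit cells (75) became 25 without the block and 52 to 188 without a library. Those against cluster 5 (3) became 1 with library totals, 0 without the block, 1 in DESeq2 and 33 to 64 without a library.

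Among the named genes that did not pass and were checked, 5 changed direction. The neck cell values of Igf1, Hspb1, Bex4, Casc4, Mt2, Ptgr1 and Cela1 were not checked for this, nor were genes not named. When a library was left out, Tff2 ranged from -1.46 to 0.44 (reversed to 0.44 without Epcam+ 1 and 0.29 without GFP+ 2), Gkn3 from -0.36 to 1.95 (without GFP+ 1 at -0.36), Chia1 from -0.17 to 0.30 (-0.15 without Epcam+ 1, -0.17 without GFP+ 1), Mki67 from -1.47 to 0.10 and Top2a from -1.43 to 0.16 (both positive without GFP+ 2). Chia1 was also at -0.068 with library totals and at -0.072 in limma, and Top2a at 0.15 without the cells highest in chief transcripts. The causes were not tested. Every called gene kept its direction under all alternatives run. Low sums, such as 30 UMIs of Smoc2 in GFP+ 2, limit the precision of the rarer genes.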
